A study of Mus musculus with 11 samples.

Results

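Germline Kif20a knockout cortex was compared with wild-type cortex at embryonic day 12.5, and all 6 libraries of this comparison were used, of 11 libraries in the whole series. They are the wild-type libraries WT1, WT2 and WT3 and the knockout libraries KO1, KO2 and KO3, chosen by their labels alone and measured by poly(A) RNA-seq. The knockout embryos were homozygous for a knockout-first allele, in which a cassette carrying LacZ and neomycin resistance sits inside Kif20a in every cell of the embryo. Per the study's methods the strain descends from a single embryonic stem cell clone and was bred with C57BL/6J mice, and wild-type embryos were littermates. The labels call the tissue forebrain and the methods call it cortex, and neither says how many embryos went into a library, so the P values below measure the spread between libraries, which may be technical.

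KIF20A is a kinesin that gathers at the central spindle and the intercellular bridge of dividing cells and takes part in the last step of division. In the cortex at this age, radial glia divide at the ventricle and give rise to intermediate progenitors and the first neurons. The cortical plate is thin, and meninges, blood vessels, blood cells and microglia lie next to or within the tissue. The comparison asks which transcripts differ when Kif20a is lost from the start of development.

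Values are read counts per gene after the authors' normalization, called normalized counts here. They are given in the order WT1, WT2, WT3 and KO1, KO2, KO3, with WT and KO for the 2 groups. They were compared on the log2(normalized count + 1) scale in the 13938 of 20475 genes with a mean of at least 10. Kif20a itself was at 2456, 2295 and 2680.2 in WT and 409, 374 and 503 in KO. All knockout values lay below all wild-type values, and the knockout libraries held 16.5%, 15.1% and 20.3% of the wild-type mean of 2477 ± 194 (SD, n = 3). The study's supplement places this remaining signal in the first exons of Kif20a, without showing the data. It states that the cassette disrupts the full-length transcript. The log2 fold change was -2.54 ± 0.15 (SE) in limma, lower in 3 of 3 knockout libraries, at a Benjamini-Hochberg adjusted p of 0.0084 over all genes. The exact two-sided permutation p was 0.1, and groups of 3 cannot give a smaller one. The adjusted p lay above 0.05 without KO1 (0.106), WT1 (0.185), WT2 (0.135) or WT3 (0.146), with limma on the remaining libraries.

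Kif20a lies on mm9 chr18:34784278-34792919 (plus strand), and its 3′ end overlaps the 3′ end of Cdc23 on the opposite strand. Cdc23, a subunit of the anaphase-promoting complex, was looked at for this overlap. Cdc23 was at 2522, 2619 and 2620.5 in WT and 1796, 1713 and 1987 in KO, without overlap between the groups, with a log2 fold change of -0.50 ± 0.11 (SE), which is under 1.5-fold. The counting is not stated to use strand, so reads of the shared end of Cdc23 and Kif20a cannot be told apart. Brd8, whose start lies next to that of Kif20a, was at 1985, 1912 and 2260.2 in WT and 2048, 2681 and 1916 in KO, and the groups overlapped. Of the other genes tested within 250 kb, only the most distant, the immediate early gene Egr1, passed the thresholds given next.

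Across all genes tested, 289 (2.07%) were higher and 93 (0.667%) lower in the knockout at the study's thresholds, a change of at least 1.5-fold and an unadjusted P of at most 0.05. "Called" below means past both, and the calls of each list below are to be read beside these shares. After adjustment 1 gene (0.00717%) remained, Kif20a, while every other gene had an adjusted p of at least 0.779 (limma, Benjamini-Hochberg). The groups did not overlap in 823 genes that were higher (5.9%) and in 1052 that were lower (7.55%). The nearest knockout and wild-type libraries stood 1.5-fold apart in 16 genes that were higher (0.115%) and in 5 that were lower (0.0359%).

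The 3 knockout libraries differed from the wild type to unequal extents. KO1 lay at least 1.5-fold above all wild-type libraries in 925 genes (6.64%) and as far below them in 628 (4.51%). KO2 did so in 1410 (10.1%) and 1722 (12.4%), but KO3 in only 183 (1.31%) and 250 (1.79%). For comparison, WT1 lay above all knockout libraries in 214 genes and below them in 340. The median absolute log2 difference between KO3 and WT3 was 0.163, less than between any pair of wild-type libraries (0.182 to 0.243). KO2 was 0.397 to 0.463 away from every other library, whereas KO1 and KO3 were 0.211 apart. The median SD was 0.307 on the log2 scale over the 3 knockout libraries and 0.183 over the 3 wild-type libraries. Over pairs it was 0.149 without KO2, against 0.129, 0.156 and 0.172 without WT1, WT2 and WT3.

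**Figure D1:**
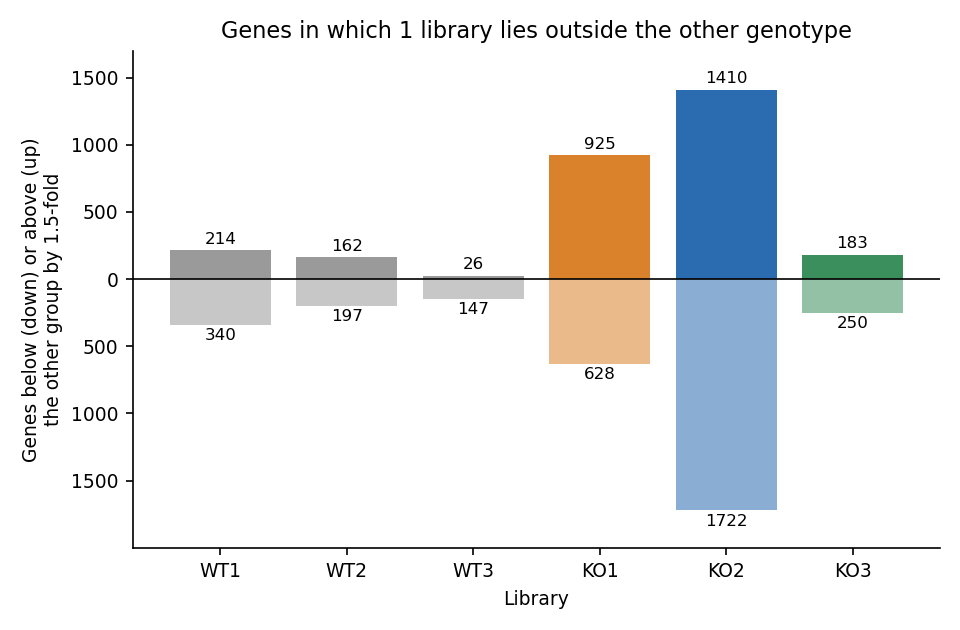
Number of genes, of 13938 tested, in which each library (x axis) lay at least 1.5-fold above (upper bars) or below (lower, paler bars) all libraries of the other genotype. KO2 had the most genes on both sides, 1410 and 1722, and KO3, with 183 and 250, was close to WT1, with 214 and 340.

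KO2 also stood apart in smaller ways. Its normalized counts summed to 15551274, against 13048716 to 13880652 in the others, and 79 tested genes were at 0 in it, against at most 2 elsewhere. These totals are set by the normalization and do not give the depth. The 4 Y-linked genes measured, Uty, Eif2s3y, Kdm5d and Ddx3y, summed to 1714, 9.83 and 4582 in WT and 4.49, 0 and 1376 in KO. Y-linked RNA was at or near 0 in WT2, KO1 and KO2, and its part in the results was not tested.

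Because the knockout libraries are compared with the same wild-type libraries, shared differences between them are given as counts without a test. KO1 and KO2 both lay at least 1.5-fold above all wild-type libraries in 238 genes and below in 101, but on opposite sides in 364. KO1 and KO3 were both above in 104, both below in 144 and on opposite sides in 6. In 98 of those 144 shared lower genes, KO2 lay above the wild-type range. KO2 and KO3 were both above in 21, both below in 18 and opposite in 133. The 289 genes called higher followed KO1 and KO2. Their median difference from the wild-type mean was 1.12 in KO1, 1.16 in KO2 and 0.45 in KO3 (log2), and KO3 was the farthest of the 3 in 6. For the 93 genes called lower the medians were -0.89, -0.98 and -0.47, with KO3 farthest in 7.

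The genes on which all 3 knockout libraries stood apart from the wild type were few and mixed in kind. P4ha2 and Slc16a3 belong here too, with KO3 0.69 and 0.88 above the wild-type mean (log2), and are given further below. En2, a homeobox factor of the midbrain and hindbrain (mm9 chr5:28492236-28500152), had the widest gap above the wild type. It was at 0.92, 0.72 and 0.40 in WT and 24.5, 22.9 and 20.1 in KO. Only the knockout embryos carry the cassette, and whether its sequence adds to the reads counted as En2 was not tested. The wild-type values lie under 3 normalized counts, taken here as the floor per library, so the knockout mean was at least 7.50-fold higher. En2 was called (limma, adjusted p = 0.779), higher in 3 of 3 knockout libraries, and since its mean is near the filter it was no longer tested once any 1 knockout library was left out. Its relative En1, at 0, 0.42 and 0 in WT and 29.2, 0 and 4.02 in KO, had too low a mean to be tested, and only KO1 was far above the wild type.

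Ache, which encodes the enzyme that breaks down acetylcholine, was at 13.8, 20.5 and 13.6 in WT and 65.2, 67.4 and 41.2 in KO. The groups did not overlap, and the log2 fold change was 1.79 ± 0.36 (SE) (limma, adjusted p = 0.779). Trib3, a pseudokinase of the integrated stress response, was at 5.25, 10.3 and 7.51 in WT and 24.8, 20.9 and 24.1 in KO, with the knockout libraries close together and a log2 fold change of 1.52 ± 0.43 (SE). Msx2, a homeobox factor of the dorsal midline that responds to BMP signals, was at 28.7, 67.98 and 63.03 in WT and 351, 160.3 and 131 in KO. KO1 was the highest in Msx2, and all knockout libraries were above the wild type. Mlxipl, a glucose-responsive transcription factor also called ChREBP, was at 17.5, 20.5 and 24.02 in WT and 65.1, 48.1 and 42.2 in KO. Gabre, a subunit of the GABA-A receptor, was at 50.7, 41.9 and 40.3 in WT and 105, 163 and 85.4 in KO. Muc2, a secreted mucin, was at 10.2, 4.64 and 8.11 in WT and 38.1, 96.99 and 18.1 in KO. The groups were apart in these 3 genes as well, and KO3 was the nearest to the wild type. Calls for Ache, Trib3, Msx2, Mlxipl, Gabre and Muc2 held under each omission of a single library.

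Less firm were Tap1, Ccdc155 and Inca1. Tap1, a peptide transporter of antigen presentation, was at 7.54, 5.78 and 8.37 in WT and 26.9, 20.1 and 15.1 in KO. Ccdc155, which links telomeres to the nuclear envelope in meiosis, was at 3.13, 7.05 and 6.84 in WT and 11.9, 19.2 and 17.1 in KO, and Inca1, an inhibitor of cyclin A1 with its kinase, at 6.04, 8.75 and 9.19 in WT and 24.6, 19.1 and 15.1 in KO. All 3 stood apart at low levels. Here and below, calls that ended when 1 library was left out are given with the log2 fold change over the other 5 libraries: calls were lost without WT1 for Ccdc155 (1.08) and Inca1 (1.02), without WT2 for Tap1 (1.24), Ccdc155 (1.56) and Inca1 (1.26), without WT3 for Ccdc155 (1.54) and Inca1 (1.29) and without KO1 for Tap1 (1.17) and Inca1 (1.02), and Ccdc155 was not tested without KO2 and KO3.

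On the lower side, the widest gaps after Kif20a belonged to Gm3417 and Gm3448, genes on chromosome 17 with identical values of 47.98, 47.9 and 48.2 in WT and 28.9, 17.9 and 22.1 in KO. Identical values leave them 1 observation, with a log2 fold change of -1.06 ± 0.31 (SE), although both count among the 5 lower genes 1.5-fold apart. Tcte3 lies close to them, at mm9 chr17:15164115-15178523, beside Gm3448 at chr17:15132803-15147148. It was at 15.4, 15.7 and 14.2 in WT and 9.68, 6.22 and 8.04 in KO and was not called. Rassf9, a Ras association domain protein, was at 24.3, 22.1 and 18.9 in WT and 10.97, 8.01 and 12.1 in KO. Dnajb13, a component of motile axonemes, was at 33.3, 29.6 and 18.8 in WT and 12.2, 5.24 and 10.1 in KO. B3galt5, a galactosyltransferase, was at 21.3, 23.3 and 17.4 in WT and 9.79, 11.7 and 7.04 in KO. Every knockout library was below every wild-type library in these 3 genes, and KO2 was the lowest in Rassf9 and Dnajb13. The uncharacterized 2610028H24Rik was at 21.4, 21.7 and 14.9 in WT and 9.76, 7.11 and 9.05 in KO, and Zbbx, which was not called, at 19, 20.4 and 19.9 in WT and 5.12, 9.86 and 13.1 in KO. These genes have means near the filter, and calls were lost without WT1 for Rassf9 (-0.94), Dnajb13 (-1.35), B3galt5 (-1.03) and 2610028H24Rik (-0.99), without WT2 for Rassf9 (-1.002), Dnajb13 (-1.43), B3galt5 (-0.97) and 2610028H24Rik (-0.98), without WT3 for Rassf9 (-1.11), B3galt5 (-1.17) and 2610028H24Rik (-1.24), without KO1 for Rassf9 (-1.06), B3galt5 (-1.09) and 2610028H24Rik (-1.15), without KO2 for Rassf9 (-0.86) and 2610028H24Rik (-0.95) and without KO3 for Rassf9 (-1.12), B3galt5 (-0.88) and 2610028H24Rik (-1.10).

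Kitl, the ligand of the receptor Kit, was far more abundant than these. It was at 892, 902 and 759.6 in WT and 547, 409 and 470.2 in KO, or 851 ± 79.5 against 476 ± 69.2 normalized counts (SD, n = 3). Its log2 fold change was -0.84 ± 0.16 (SE) (limma, adjusted p = 0.779), lower in 3 of 3 knockout libraries. It was called without any 1 library, with log2 fold changes between -0.95 and -0.74.

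**Figure D2:**
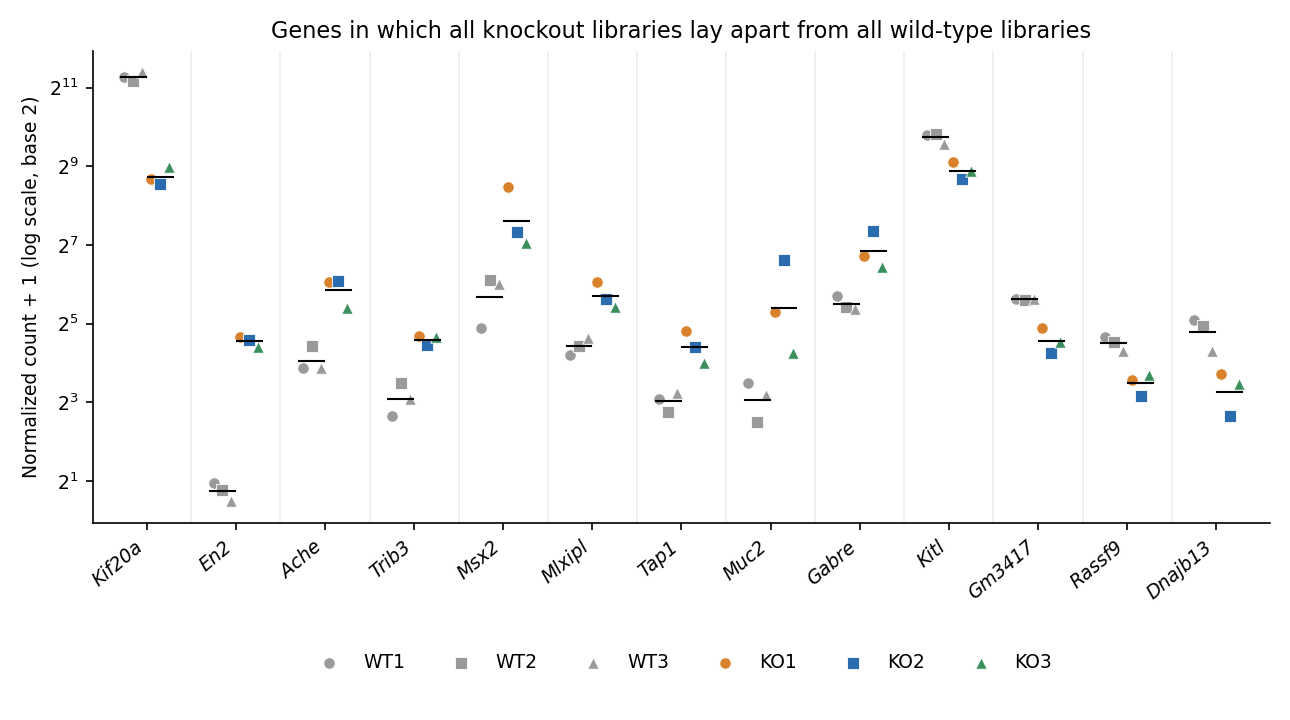
Normalized counts plus 1 on a log axis for Kif20a and 12 genes in which all knockout libraries (coloured) lay on 1 side of all wild-type libraries (grey). Black lines are group means on the log scale. Kif20a and En2 show the widest gaps, and in Muc2 KO2 lies far above KO3.

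Most of the largest called increases had another shape: very high in KO1 and KO2 and far nearer the wild type in KO3. KO3 was above the wild-type range in some of these and within it in others. Several belong to the response to low oxygen, in which hypoxia-inducible factor (HIF) is stabilized and raises glucose uptake, glycolysis and lactate export. Slc16a3, the lactate exporter MCT4, was at 134, 229 and 218 in WT and 2530.4, 1710.0 and 349 in KO. Slc2a3, the neuronal glucose transporter, was at 207, 225 and 293 in WT and 2605, 2950 and 312 in KO. Slc2a1, the general glucose transporter, was at 958, 968 and 1287 in WT and 5247, 9296 and 1223 in KO. KO1 and KO2 lay several-fold above the wild type in these transporters, while KO3 lay above the wild-type range for Slc16a3, just above it for Slc2a3 and within it for Slc2a1. Their log2 fold changes were 2.60 ± 0.69 (SE), 2.48 ± 0.81 (SE) and 1.88 ± 0.67 (SE). Slc16a1, a lactate transporter of most tissues, was at 824, 753 and 823 in WT and 1212, 964 and 897 in KO and was not called. Of the 7 transport genes tested, 3 were called higher and none lower, against 2.07% and 0.667% of all genes. Their median log2 fold change was 1.25, beside -0.043 over all genes. By library, the median difference from the wild-type mean was 2.3 in KO1, 0.30 in KO2 and 0.23 in KO3, so the list as a whole was high mainly in KO1. Slc16a3 was called without any 1 library, but calls were lost without WT1 for Slc2a3 (2.38) and Slc2a1 (1.81), without WT2 for Slc2a1 (1.81) and without KO1 for Slc2a3 (2.01) and Slc2a1 (1.67).

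Glycolytic enzymes were high in both KO1 and KO2. Of 25 entries tested, 16 were called higher and none lower, against 2.07% and 0.667% of all genes, and the median log2 fold change was 0.94. The median difference from the wild-type mean was 1.14 in KO1, 1.58 in KO2 and 0.10 in KO3. Ldha, which makes lactate from pyruvate, was at 6401, 6591 and 6119.6 in WT and 16659, 15954 and 8146 in KO. KO3 too was above the wild-type range, and the call of Ldha, with a log2 fold change of 1.02 ± 0.27 (SE), was kept without any 1 library. Pdk1, a kinase that holds pyruvate back from the mitochondria, was at 817, 804 and 828 in WT and 4461, 5162 and 972 in KO. Aldoa, an aldolase, was at 2174, 2427 and 2673 in WT and 8063, 14059.7 and 2985 in KO. Pgk1, phosphoglycerate kinase, was at 5786, 5700.4 and 5454 in WT and 11461, 14179.6 and 6432 in KO. In these 3 genes KO2 was the highest and KO3 just above the wild type. Tpi1, triose phosphate isomerase, was at 3783, 3972 and 3892 in WT and 8576, 11299 and 4239.9 in KO, with the same order. Eno1, an enolase, was at 5934, 6202 and 5683 in WT and 14072, 20759 and 6734 in KO, but its values are almost those of 1 of the entries named Eno1b, and the reads of these 3 entries cannot be told apart. Each of the 3 was called, so they count separately among the 16 without being independent.

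Hk2, the inducible hexokinase, and Pfkfb3, which activates phosphofructokinase, are list members chosen after their values were seen. Hk2 was at 478, 702 and 715 in WT and 3713, 5874 and 717 in KO. Pfkfb3 was at 568, 567 and 543 in WT and 2690.3, 6579 and 548 in KO. KO1 and KO2 were far above the wild type in both, and KO3 was within the wild-type range in Pfkfb3. Among the glycolytic genes named, calls were lost without WT1 for Pdk1 (1.79), Aldoa (1.45), Tpi1 (0.92), Eno1 (1.08), Hk2 (1.82) and Pfkfb3 (1.94), without WT2 for Pdk1 (1.78), Aldoa (1.53), Tpi1 (0.95), Eno1 (1.11), Hk2 (2.10) and Pfkfb3 (1.94), without WT3 for Tpi1 (0.94), Eno1 (1.05) and Pfkfb3 (1.91), without KO1 for Pdk1 (1.46), Aldoa (1.42), Pgk1 (0.76), Tpi1 (0.83), Eno1 (0.99), Hk2 (1.72) and Pfkfb3 (1.76) and without KO2 for Pfkfb3 (1.12).

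HIF targets outside glycolysis were as far apart between the knockout libraries. Of 31 tested genes (Epo had too low a mean), 13 were called higher and none lower, against 2.07% and 0.667% of all genes. Their median log2 fold change was 1.01, from medians of 1.70 in KO1, 1.82 in KO2 and 0.009 in KO3. P4ha2, a prolyl hydroxylase of collagen, was at 39.5, 39.4 and 41.7 in WT and 552, 1327 and 65.3 in KO. Bnip3, a mitochondrial protein that triggers mitophagy, was at 420.0, 409.7 and 447 in WT and 4459, 6621 and 515 in KO. Adm, the vasodilator adrenomedullin, was at 11.4, 3.23 and 3.31 in WT and 302, 245 and 11.1 in KO. KO1 and KO2 exceeded every wild-type library in these 3 genes, while KO3 did so in P4ha2 and Bnip3 alone. Vegfa, the main growth factor of blood vessels, was at 1012, 821 and 1109 in WT and 5202, 11873 and 1302 in KO. Loxl2, a lysyl oxidase, was at 234, 445 and 604 in WT and 2384, 1310.4 and 805 in KO. Fam162a, a mitochondrial hypoxia gene, was at 907, 846 and 736 in WT and 2149, 2489.5 and 846 in KO. KO3 was above the wild-type range in Vegfa and Loxl2 and inside it in Fam162a. Ddit4, an inhibitor of mTORC1 induced by hypoxia, was at 671, 734 and 541 in WT and 3245, 9151 and 488 in KO, where KO3 was below all wild-type libraries, and it was not called, though it was without KO3 (log2 fold change 3.08). P4ha2 and Loxl2 kept their calls without any 1 library, while calls were lost without WT1 for Bnip3 (2.53), Vegfa (2.18) and Fam162a (1.07), without WT2 for Bnip3 (2.51), Vegfa (2.03) and Fam162a (1.02), without WT3 for Fam162a (0.92), without KO1 for Bnip3 (2.12), Adm (3.16), Vegfa (2.01) and Fam162a (0.81) and without KO2 for Fam162a (0.71).

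Genes outside the glycolytic and HIF lists shared the pattern. Smtnl2, a smoothelin-like protein, was at 20.04, 27.8 and 17.4 in WT and 274, 283 and 38.2 in KO. Ciart, a repressor of the circadian clock, was at 43.1, 31.2 and 45.6 in WT and 345, 596 and 64.3 in KO. Mgarp, a mitochondrial protein, was at 9.29, 14.6 and 12.7 in WT and 150.2, 124 and 20.1 in KO. All 3 were called higher without any 1 library, with KO3 the lowest of the knockout libraries and above the wild-type range. Esm1, a marker of endothelial tip cells, was at 6.45, 9.62 and 9.64 in WT and 136, 65.5 and 13.1 in KO. Igfbp2, a binding protein of insulin-like growth factors, was at 1877, 2488 and 2592 in WT and 5448, 8884 and 2905 in KO. Ier3, a stress-induced early gene, was at 16.4, 13.2 and 20.5 in WT and 414, 386 and 18.1 in KO. KO3 was within the wild-type range in Ier3 alone. Txnip, which restrains glucose uptake, went the other way at 1066, 928 and 934 in WT and 348, 63.98 and 746 in KO, with KO2 the lowest and KO3 the closest to the wild type. Of these, calls were lost without WT1 for Esm1 (2.25), Igfbp2 (1.03), Ier3 (3.05) and Txnip (-1.86), without WT2 for Ier3 (2.91) and Txnip (-1.96), without WT3 for Ier3 (3.21) and Txnip (-1.96), without KO1 for Esm1 (1.70), Ier3 (2.30) and Txnip (-2.15) and without KO2 for Ier3 (2.35).

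The counts of the lists depended on which libraries were kept. Without KO1, 1 of 25 glycolytic entries and 2 of 31 HIF targets were called higher. Without KO2 it was 11 and 12, and without KO3 it was 20 and 22. Leaving out WT1, WT2 and WT3 gave 2, 4 and 6 glycolytic entries and 3, 5 and 7 HIF targets. With KO3 left out, 11 genes passed an adjusted p of 0.05 (limma, Benjamini-Hochberg). Besides Kif20a these were Bnip3, Ero1l, Ier3, P4ha1, P4ha2, Pdk1, Plod2, Slc16a3, Slc2a3 and Smtnl2, all higher in the knockout. Pdk1 then had a log2 fold change of 2.55 ± 0.13 (SE, limma, adjusted p = 0.0079) and Bnip3 of 3.67 ± 0.20 (adjusted p = 0.0079), each higher in 2 of 2 knockout libraries. Y-linked RNA was almost absent in WT2, KO1 and KO2, whose medians in the glycolytic list were 0.058, 1.14 and 1.58. Its part in this list was not tested.

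**Figure D3:**
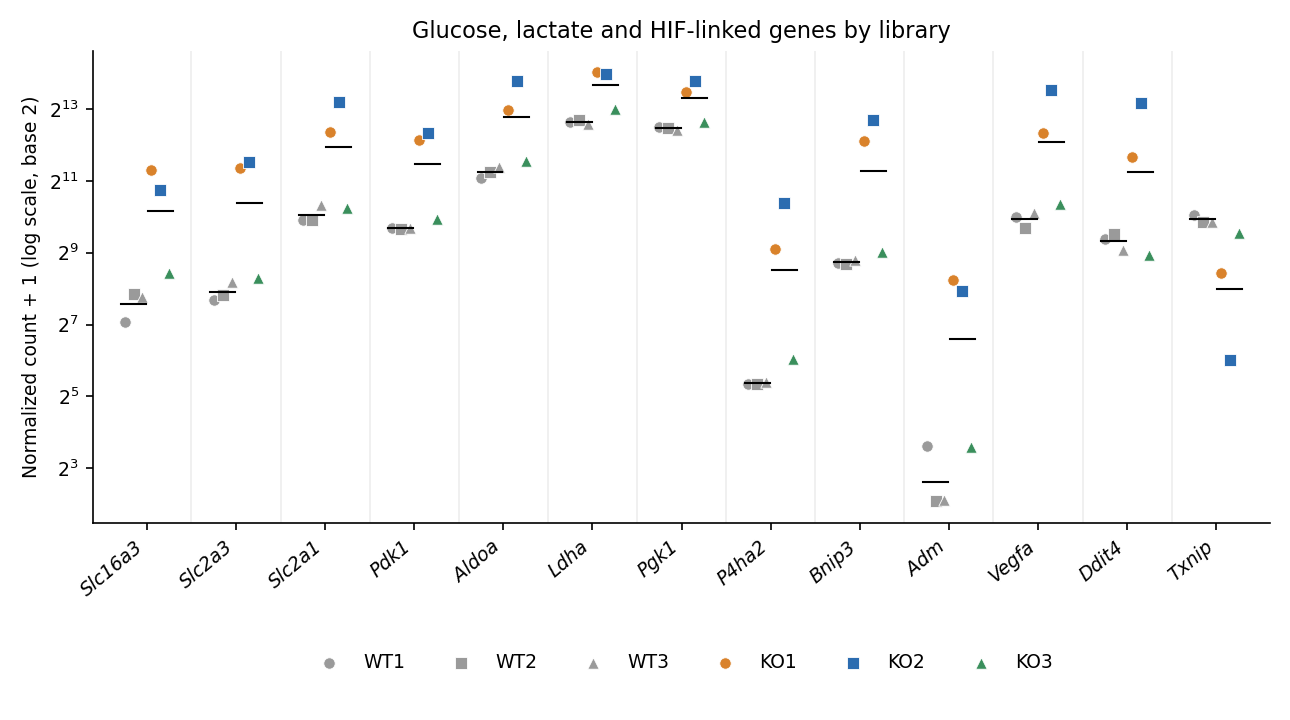
Normalized counts plus 1 on a log axis for 13 genes of glucose and lactate transport, glycolysis and HIF targets, with Txnip at the right. KO1 (orange) and KO2 (blue) lie above the 3 wild-type libraries (grey) in all but Txnip, where they lie below. KO3 (green) is the knockout library closest to the wild type.

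Promoter sequence was looked at for this group because its members moved together and HIF binds a short core. The letters ACGTG and GCGTG were searched on both strands in windows of 300 bases around RefSeq transcript starts (GRCm38.p6). The palindrome CACGTG, which is also the E-box that other factors read, counts as a match on each strand. Windows existed for 10508 of the tested genes, and 66.5% of these genes had a match in at least 1 window. A match was present in 19 of 23 glycolytic genes, 22 of 22 other HIF targets and 15 of 25 genes of neuronal differentiation. The HIF list was made of known targets, so a high share is built into it and says nothing about these libraries. Over all genes called higher the share was 67.1%, near that of all genes. Genes differ in how many windows they have. By window, 75% matched in the glycolytic, 84.4% in the HIF and 45.5% in the neuronal list, against 60.6% over all genes. The windows of Bnip3, P4ha2, Slc16a3 and Ciart are shown because these genes are among the 10 largest called increases without overlap between the groups and hold several matches. Smtnl2 is shown because it has the same expression pattern and no match. They were chosen after their matches were counted and are written 5′ to 3′ on the gene's strand, with matches in capitals.
Bnip3: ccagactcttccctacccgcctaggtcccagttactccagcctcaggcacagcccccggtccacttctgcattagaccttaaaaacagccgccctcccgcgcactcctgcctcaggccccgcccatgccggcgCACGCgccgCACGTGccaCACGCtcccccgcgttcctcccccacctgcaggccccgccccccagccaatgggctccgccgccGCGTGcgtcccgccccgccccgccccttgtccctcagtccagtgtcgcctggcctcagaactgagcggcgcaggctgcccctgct
P4ha2: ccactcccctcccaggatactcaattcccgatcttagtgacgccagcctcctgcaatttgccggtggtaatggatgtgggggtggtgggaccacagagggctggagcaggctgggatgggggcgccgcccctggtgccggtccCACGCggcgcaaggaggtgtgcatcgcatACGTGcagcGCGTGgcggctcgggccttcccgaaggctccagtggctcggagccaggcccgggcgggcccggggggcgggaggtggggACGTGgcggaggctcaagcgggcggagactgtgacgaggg
Slc16a3: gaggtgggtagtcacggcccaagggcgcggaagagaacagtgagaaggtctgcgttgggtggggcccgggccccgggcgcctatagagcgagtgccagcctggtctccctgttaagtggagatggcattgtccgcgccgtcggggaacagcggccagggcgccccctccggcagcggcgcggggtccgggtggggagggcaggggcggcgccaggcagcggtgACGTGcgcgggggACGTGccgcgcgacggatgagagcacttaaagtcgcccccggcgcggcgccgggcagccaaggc
Ciart: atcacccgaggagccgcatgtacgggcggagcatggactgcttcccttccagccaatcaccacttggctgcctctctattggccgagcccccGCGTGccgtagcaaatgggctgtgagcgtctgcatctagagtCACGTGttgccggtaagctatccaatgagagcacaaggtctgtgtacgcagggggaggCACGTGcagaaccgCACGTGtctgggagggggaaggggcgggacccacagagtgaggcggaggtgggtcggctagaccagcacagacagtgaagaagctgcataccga
Smtnl2: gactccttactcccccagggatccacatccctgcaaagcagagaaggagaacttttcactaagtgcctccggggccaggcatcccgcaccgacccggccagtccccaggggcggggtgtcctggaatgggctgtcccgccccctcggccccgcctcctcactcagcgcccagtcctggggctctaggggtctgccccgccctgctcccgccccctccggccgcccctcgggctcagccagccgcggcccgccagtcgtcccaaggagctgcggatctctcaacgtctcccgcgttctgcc
The windows lie at chr7:138909457-138909756 (minus strand), chr11:54100674-54100973 (plus), chr11:120948817-120949116 (plus), chr3:95882179-95882478 (minus) and chr11:72411664-72411963 (minus) of GRCm38.p6. Matches, both strands counted, numbered 5, 4, 2, 7 and 0. They describe the letters only, and no binding was measured.

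Neuronal genes set KO2 against KO1 and KO3. Of 36 genes of neuronal differentiation, none was called in either direction with all 6 libraries. KO1 lay below the wild-type range in 31 and KO3 in 34, whereas KO2 lay above it in 32. By 1.5-fold or more these were 17, 12 and 20, against 4.51%, 1.79% and 10.1% of all genes. The median differences from the wild-type mean were -0.86, 0.91 and -0.74 in KO1, KO2 and KO3, and the list's sum was 52.2%, 186% and 59.6% of the wild-type mean. In bulk tissue, fewer cells of a type and less RNA per cell cannot be told apart. Dcx and Tubb3, microtubule proteins of young neurons, and Tbr1, a factor of early projection neurons, were chosen after their values were seen. Dcx was at 12956, 11915 and 12600.1 in WT and 5224, 26719 and 6998 in KO. Tubb3 was at 8114, 10476 and 8753 in WT and 4888, 14813 and 6147 in KO. Tbr1 was at 2400.5, 3354 and 2951 in WT and 848, 6293 and 1624 in KO. KO1 and KO3 were below and KO2 was above every wild-type library. By the smallest P in the list, Gap43, a growth cone protein, was at 2051, 1810.0 and 968 in WT and 705, 2033 and 721 in KO. Stmn3, a stathmin of neurons, was at 1978, 1737 and 1352 in WT and 809.6, 2093 and 979.6 in KO. Myt1l, a factor that holds neuronal identity, was at 1362, 1398 and 977 in WT and 333, 2068 and 523 in KO. KO1 and KO3 were again the lowest, and KO2 was within the wild-type range in Gap43 and above it in Stmn3 and Myt1l.

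Synaptic genes followed the same pattern. Of 36, 1 was called lower and none higher, with medians of -0.98, 0.96 and -0.79 in KO1, KO2 and KO3. The called gene was Kcnv1, a potassium channel subunit, at 119, 32.7 and 21.6 in WT and 12.4, 16.1 and 10.1 in KO. WT1 stood far above the other libraries, and the call was lost without WT1 (-1.02), without KO1 (-1.71) and without KO3 (-1.57). Among 19 genes of early projection neurons and the subplate none was called. Bhlhe22, a factor of postmitotic cortical neurons, was at 881, 709.6 and 193 in WT and 61.7, 711 and 209 in KO, so that WT3 was as low as KO3. Rorb, a nuclear receptor, was at 234, 280.1 and 228 in WT and 188, 202 and 178 in KO, and its knockout values lay below all wild-type values without passing the fold threshold.

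Intermediate progenitor genes, of which none of 16 was called, gave medians of -0.18, 0.67 and -0.28 in KO1, KO2 and KO3. Insm1, a factor that drives delamination of neurogenic progenitors, was at 769.9, 978 and 769.7 in WT and 569, 556 and 567 in KO. In contrast to the list's medians, all knockout values were close together and below all wild-type values, with a log2 fold change of -0.56 ± 0.14 (SE), just under 1.5-fold. Hes6, an antagonist of Hes1, was at 1060.3, 1175 and 1043 in WT and 790.2, 958 and 876 in KO, also without overlap.

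With KO2 left out, many of these genes passed both thresholds. In all, 26 of 36 neuronal differentiation genes, 23 of 36 synaptic genes and 8 of 19 projection neuron genes were then called lower and none higher. Lists given below moved too: 21 of 26 cranial mesenchyme, 10 of 14 epidermal and 8 of 17 diencephalon genes were called higher without KO2, and none lower. Dcx had a log2 fold change of -1.05 and Tbr1 of -1.29 without KO2 (limma, adjusted p = 0.122 and 0.142), lower in 2 of 2 knockout libraries. Over all genes, 587 were called higher and 642 lower without KO2, and these included 172 of the 289 and 52 of the 93 called with all libraries. Without KO1 the counts were 146 and 55, and without KO3 617 and 403. Thus 253 of the 289 and 74 of the 93 were called also without KO3, but 108 and 28 without KO1.

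**Figure D4:**
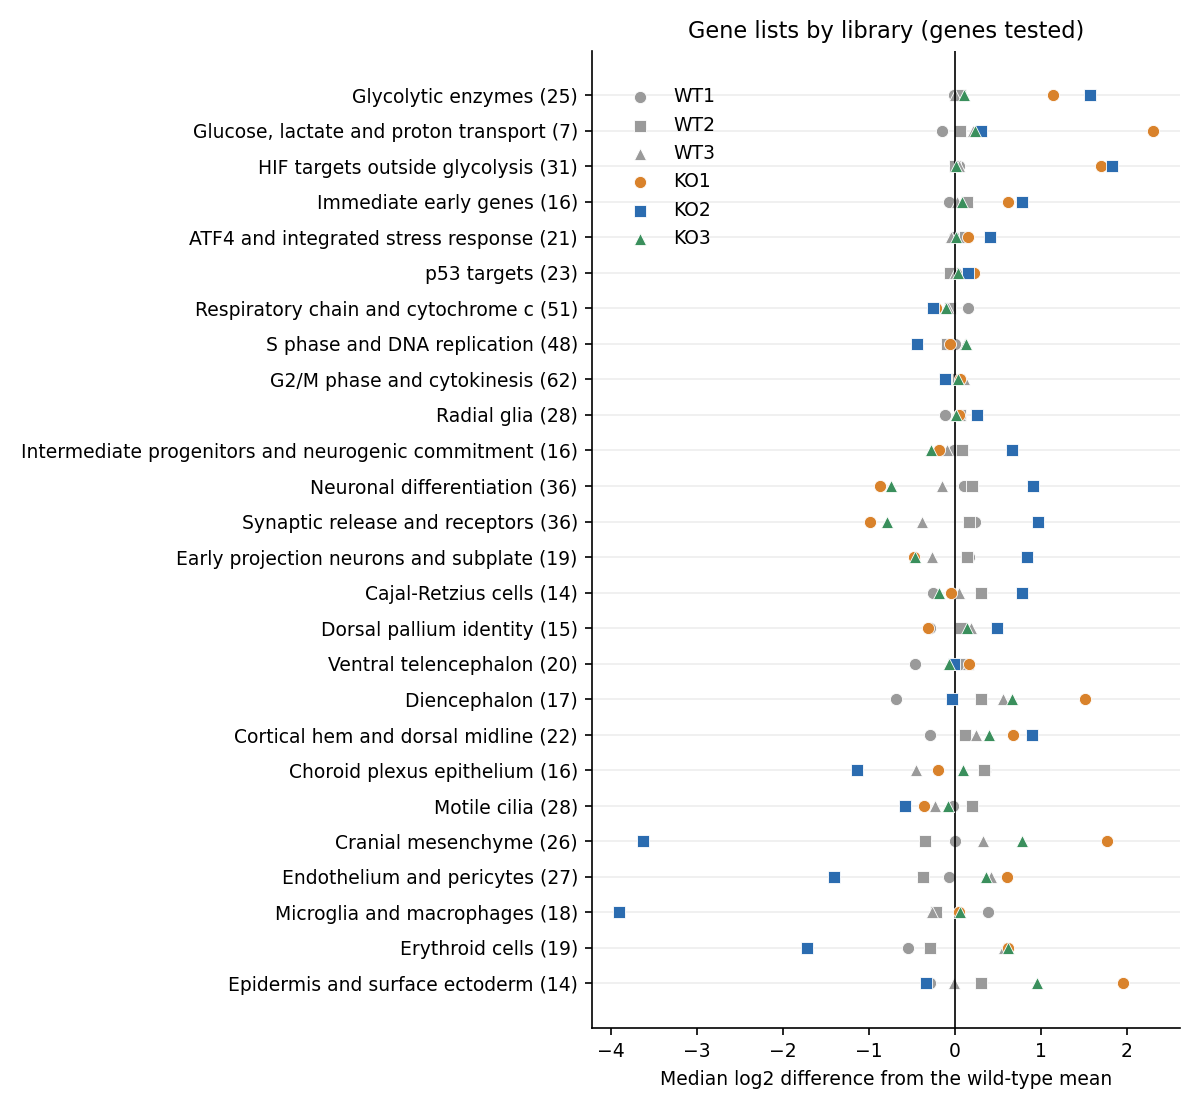
Median log2 difference from the wild-type mean (x axis) over the tested genes of 26 lists (number in brackets), 1 point per library. Glycolytic and HIF lists are high in KO1 and KO2 and near 0 in KO3, neuronal lists are low in KO1 and KO3 and high in KO2, and cranial mesenchyme and microglia lists are far below the wild type in KO2, at -3.63 and -3.90.

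Markers of cells from outside the neuroepithelium were spread more widely still. Of the 26 genes of the cranial mesenchyme, which forms the meninges and dermis, none was called, yet 23 lay above the wild-type range in KO1, 20 in KO3 and none in KO2, where 24 lay below it. At 1.5-fold, 21 were above in KO1, 9 above in KO3 and 24 below in KO2, against 6.64%, 1.31% and 12.4% of all genes. The sum of the list ranged from 10545 to 15153 in the wild-type libraries and was 32655, 4533 and 17642 in KO1, KO2 and KO3. At 0 in KO2 were 5 of the 26, among them Foxc2, Twist2, Tbx18 and Aldh1a2, and none was at 0 in any other library. Of the 5 genes in which KO2 lay farthest below the other libraries, 1 was Mrc1, a macrophage gene given below, and the others were of the matrix or mesenchyme. The collagen Col3a1 was at 2387, 1838 and 4037 in WT and 8253, 2.46 and 4489 in KO. Lum, a matrix proteoglycan, was at 1026, 432 and 1123 in WT and 2218, 0.65 and 1139 in KO. Tbx18, a factor of mesenchyme and pericytes, was at 256, 144 and 322 in WT and 748, 0 and 335 in KO. KO2 was at or near 0 in each, and KO1 was the highest library. Lamc3, a laminin chain, was at 123, 107 and 268 in WT and 299.6, 0 and 221 in KO, with the same extremes.

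Blood vessel, blood and macrophage genes were low in KO2 as well. The endothelial and pericyte list summed to 3330.0 to 5736 in the wild-type and 1827 to 6297 in the knockout libraries. In KO2, 22 of 27 genes were below the wild-type range, 17 of them by 1.5-fold, against 12.4% of all genes. Esm1 was the 1 gene called. Rgs5, a pericyte gene, was at 329, 129 and 144 in WT and 108, 4.26 and 135 in KO. Microglia and macrophage genes, of which 0 of 18 were called, summed to 1269.6 to 1893 in the wild-type libraries and to 1669, 304 and 1496 in the knockout libraries. Mrc1, a receptor of macrophages, was at 407, 203 and 202 in WT and 344, 0 and 228 in KO. Cx3cr1, a microglial chemokine receptor, was at 132, 124 and 104 in WT and 86.2, 4.26 and 97.5 in KO. Csf1r, the receptor on which microglia depend, was at 177, 142 and 124 in WT and 101, 6.96 and 152 in KO. KO2 was far below the other libraries in these 3 genes, and KO1 and KO3 were within or near the wild-type range.

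Erythroid genes summed to 107909 to 176959 in the wild-type libraries and to 164742, 43745 and 174732 in the knockout libraries. The 1 of 19 called was Tfrc, the transferrin receptor, which dividing cells of many kinds also use. It was higher, at 2323, 2077 and 2857 in WT and 3460.3, 4955 and 2727 in KO, although KO3 lay within the wild-type range, and the call was lost without WT1 (0.56), without WT2 (0.48), without KO1 (0.62) and without KO2 (0.36). The part of all these cells in the neuronal and hypoxia values was not tested. The HIF target list summed to 300%, 446% and 104% of the wild-type mean in KO1, KO2 and KO3. Its relation to the mesenchymal and neuronal sums was not tested.

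**Figure D5:**
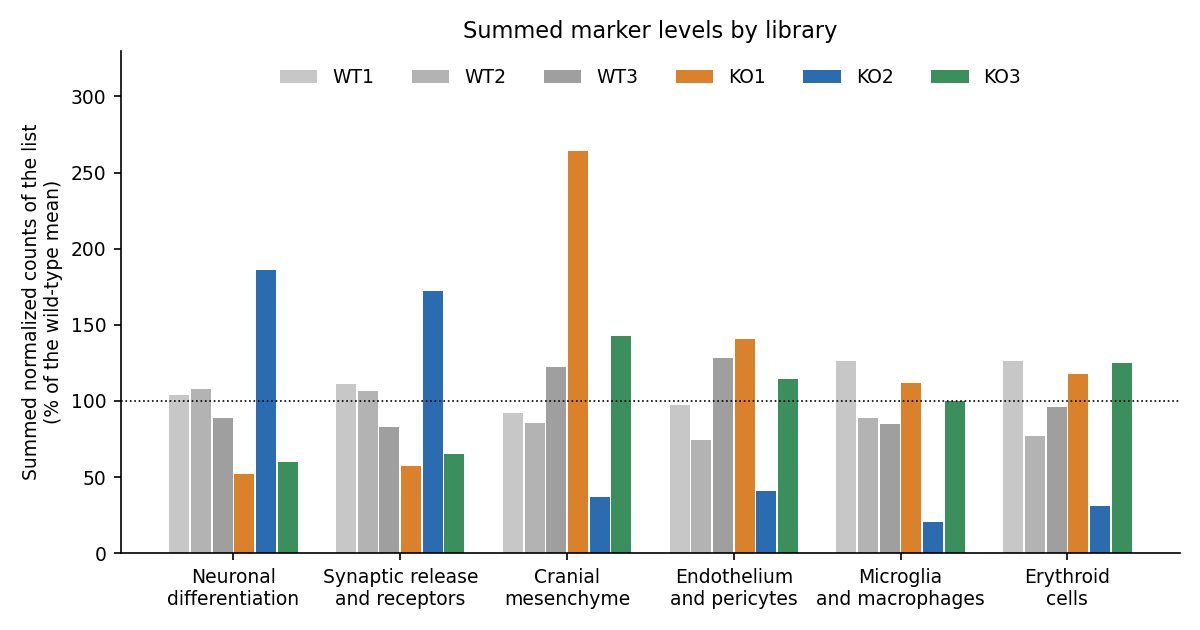
Summed normalized counts of 6 marker lists per library, as a percentage of the mean of the wild-type libraries (dotted line). KO2 holds 186% for neuronal differentiation and 36.6% for cranial mesenchyme, and KO1 holds 52.2% and 264%.

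Most epidermal genes were high in KO1 and KO3, and KO2 was divided. They lay above the wild-type range in KO1 for 12 and in KO3 for 10 of 14 tested genes, whereas in KO2 5 lay above and 6 below it. Those 1.5-fold above numbered 11 in KO1 and 6 in KO3, against 6.64% and 1.31% of all genes. The list summed to 1069 to 1282 in the wild-type libraries and to 1825, 2059 and 1388 in KO1, KO2 and KO3, so that KO2 had the highest sum. In all, 6 of the 20 list members had too low a mean to be tested. Krt5, a keratin of basal epidermis, was at 0, 0.82 and 0 in WT and 48.6, 1.62 and 40.2 in KO. The wild-type libraries and KO2 were below the floor of 3, KO1 and KO3 were far above it, and the knockout mean was at least 10.05-fold higher. Dsp, a desmosomal protein, was called higher at 52.3, 46.3 and 10.3 in WT and 145, 74.3 and 73.3 in KO. WT3 was far below WT1 and WT2, and calls were lost without WT3 for Dsp (0.90), without KO1 for Dsp (1.29) and without KO3 for Krt5 (3.22) and Dsp (1.78), and Krt5 was not tested without KO1.

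Genes of neighbouring brain regions set KO1 apart. Of 17 diencephalon genes none was called, while 13 lay above the wild-type range in KO1 and 10 in KO3. With a distance of 1.5-fold these were 9 and 4, against 6.64% and 1.31% of all genes. Irx3, a homeobox factor, was at 10.7, 19.4 and 19.04 in WT and 237, 14.2 and 60.3 in KO, and Foxb1, a forkhead factor of mammillary and thalamic cells, at 0.13, 10.6 and 5.84 in WT and 74.2, 3.42 and 20.1 in KO. The genes in which KO1 stood farthest above the other 5 libraries were mostly patterning factors with expression in the developing thalamus or midbrain. Shox2 was at 0.68, 13.2 and 7.20 in WT and 644, 3.35 and 22.1 in KO. Olig3 was at 0.69, 9.89 and 32.4 in WT and 451, 11.5 and 21.1 in KO. Gbx2 was at 8.61, 11.3 and 8.83 in WT and 208, 19.7 and 7.05 in KO. In each, KO1 was far above every other library and the rest were low. Irx2 was at 0.15, 2.72 and 2.68 in WT and 86.4, 4.34 and 4.03 in KO. Tnfrsf9, an immune receptor, was also among the 5 at 0.20, 2.58 and 0.39 in WT and 65.2, 4.37 and 3.02 in KO. Since the wild-type values of these 2 genes lie under 3, their knockout means were at least 10.5-fold and 8.07-fold higher, from KO1 in the main, and neither was called.

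Only 8 of 23 midbrain and hindbrain genes had a sufficient mean, and 1 of these was called, En2. The part of the cassette in the En2 reads was not tested, as said above. Genes of the ventral telencephalon (none of 20 called) had medians of 0.17, -0.0086 and -0.069 in KO1, KO2 and KO3. For the dorsal pallium (none of 15) they were -0.31, 0.49 and 0.14.

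Other genes stood out in 1 knockout library. Among the lowest in KO1, Cck, a neuropeptide, was at 51.1, 26.5 and 35.3 in WT and 2.87, 66.5 and 17.1 in KO. Slc17a7, a vesicular glutamate transporter, was at 292, 237 and 101 in WT and 29.4, 442 and 109 in KO. Rlbp1, a retinoid-binding protein, was at 482, 246 and 79.5 in WT and 16.2, 196 and 78.4 in KO. The wild-type libraries were spread widely in the last of these. KO2 stood farthest above the others in Kctd16, a subunit of GABA-B receptors, at 4.59, 5.68 and 1.16 in WT and 3.90, 55.5 and 2.02 in KO. Fos, an immediate early gene, was at 9.53, 7.71 and 1.84 in WT and 16.96, 98.2 and 5.03 in KO. Gipr, a hormone receptor, was at 25.4, 12.9 and 9.60 in WT and 37.3, 188 and 18.1 in KO. KO2 was severalfold above the next library, KO1, in Fos and Gipr. Rhcg, an ammonia transporter, was at 75.1, 60.01 and 56.7 in WT and 104, 450.4 and 69.3 in KO. KO3 had no high gene as distant as these, and the first was Aspn, a matrix proteoglycan, at 25.8, 20.3 and 20.9 in WT and 28.8, 19.8 and 65.3 in KO.

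Of the 5 lowest genes of KO3, 4 were X-linked lymphocyte-regulated genes. Xlr3b was at 148, 176 and 199 in WT and 126, 179 and 15.1 in KO. Xlr3c was at 115, 139 and 169 in WT and 93.5, 142 and 12.1 in KO. Xlr3a was at 109, 134 and 144 in WT and 86.3, 122 and 14.1 in KO. KO3 alone was low in each, and KO1 and KO2 were near the wild type. Xlr4b was at 9.24, 14.2 and 16.8 in WT and 8.50, 14.6 and 1.01 in KO. These paralogues are nearly identical and may share reads, so their levels are uncertain and not independent. The other was Gabra5, a subunit of GABA-A receptors, at 69.7, 35.1 and 7.34 in WT and 14.7, 33.6 and 1.02 in KO, where the wild-type libraries were themselves widely spread and WT3 was the lowest of them.

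The cortical hem list was above the wild type in all 3 knockout libraries. The hem is the dorsal midline source of Wnt and BMP signals next to the choroid plexus. Of its 22 tested genes, 8 were called higher and none lower, 22 of 22 had a higher mean, and the groups did not overlap in 10. Over all genes 2.07% were called higher, and 5.9% were higher without overlap. The median differences from the wild-type mean were 0.67, 0.90 and 0.40 in KO1, KO2 and KO3, and -0.29, 0.12 and 0.24 in WT1, WT2 and WT3. Wnt9a, a Wnt ligand, was at 95.96, 104 and 139 in WT and 224, 326 and 197 in KO, with a log2 fold change of 1.12 ± 0.26 (SE). Rspo2, an R-spondin that strengthens Wnt signalling, was at 368, 618 and 810.3 in WT and 1030.4, 1569 and 973 in KO, and Rspo1, of the same family, at 339, 420.1 and 679 in WT and 709.7, 907 and 793 in KO. WT3 was close to the knockout libraries in both R-spondins, and WT1 was the lowest.

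The other called members, chosen after their values were seen except for Msx2, were Wnt8b, Rspo3, Bmp2, Bmp6 and Msx2. Wnt8b, a Wnt ligand of the hem, was at 504, 774 and 1224 in WT and 1236, 1434 and 1769 in KO, where KO3 was the highest library. Bmp2, a BMP ligand, was at 10.8, 22 and 24.04 in WT and 47.6, 72.9 and 32.1 in KO. Wnt9a, Rspo2 and Msx2 were called without any 1 library, but calls were lost without WT1 for Rspo1 (0.58), Wnt8b (0.59), Rspo3 (0.51), Bmp2 (1.04) and Bmp6 (0.61), without WT2 for Rspo1 (0.74), Wnt8b (0.90), Rspo3 (0.53) and Bmp6 (0.69), without KO1 for Rspo3 (0.56) and Bmp6 (0.67), without KO2 for Rspo3 (0.42) and Bmp6 (0.65) and without KO3 for Wnt8b (0.77). Left out singly, KO1, KO2 and KO3 gave 7, 8 and 9 hem genes called higher, and WT1, WT2 and WT3 gave 3, 4 and 8. Gdf7 had too low a mean to be tested.

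Genes of the choroid plexus, next to the hem, did not follow it. Ttr, the thyroxine carrier that the choroid plexus secretes, was called lower at 4709.6, 4949.5 and 1146 in WT and 569, 713 and 1663 in KO. WT3 lay far below the other wild-type libraries and below KO3. In the choroid plexus list, 1 of 16 was called lower (Ttr) and 1 higher (Igfbp2, which other tissues also make). Motile cilia genes had 3 of 28 called lower and none higher, against 0.667% and 2.07% of all genes. Their median log2 fold change was -0.33, beside -0.043 over all genes. Without WT2 it was -0.14, and none of the 28 was called without WT1 or without WT2. Ccdc146, a cilia protein, was at 28.3, 30.3 and 11.6 in WT and 2.75, 4.36 and 9.05 in KO. Wdr63, an axonemal dynein protein, was at 48.1, 36.1 and 22.7 in WT and 7.59, 4.31 and 21.1 in KO. The third was Dnajb13, given above, and the groups did not overlap in any of these. Cfap53, a cilia protein outside the list, was at 16.9, 22.9 and 15.01 in WT and 3.91, 3.46 and 14.1 in KO, with KO3 just under the wild-type range. Of these genes, calls were lost without WT1 for Ttr (-1.44), Ccdc146 (-1.76), Wdr63 (-1.56), Dnajb13 (-1.35) and Cfap53 (-1.50), without WT2 for Ttr (-1.40), Ccdc146 (-1.71), Wdr63 (-1.77), Dnajb13 (-1.43) and Cfap53 (-1.29), without WT3 for Cfap53 (-1.58), without KO1 for Ttr (-1.46), Wdr63 (-1.70) and Cfap53 (-1.21) and without KO2 for Cfap53 (-1.14).

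Few progenitor and cell cycle genes passed the thresholds. Of 28 radial glia genes 2 were called lower and none higher, against 0.667% and 2.07% of all genes. Fabp7, a fatty acid-binding protein of radial glia, was at 7955, 4447 and 4339 in WT and 3021, 3230.5 and 2959.9 in KO, where WT1 was far above the rest. Ccnd2, a G1 cyclin, was at 35206, 32666 and 22332 in WT and 13382, 13788 and 20528 in KO, with a log2 fold change of -0.92 ± 0.25 (SE) that held without any 1 library. KO3 lay just below WT3, the lowest wild-type library. None of 48 S phase genes was called, with medians of -0.055, -0.44 and 0.13 in KO1, KO2 and KO3. In KO2, 37 of the 48 lay below the wild-type range, and in KO3 21 lay above it. Differences of 1.5-fold were fewer, 9 and 0, against 12.4% and 1.31% of all genes.

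Genes of G2/M and cytokinesis, the stage at which KIF20A acts, had 2 of 62 called higher and none lower, a list that leaves Kif20a out. This is near the 2.07% called higher over all genes. Hjurp, the chaperone that deposits CENP-A, was at 4299, 4464 and 4642 in WT and 7518, 10590.4 and 5434 in KO. Cit, citron kinase of the cytokinetic ring, was at 686, 975 and 1017 in WT and 1275, 2012 and 1197 in KO. All knockout libraries exceeded the wild type in both, and KO2 was the highest. Among Rgs3, ephrin-B and central spindle genes, 1 of 17 was called, Ephb3, an ephrin-B receptor, at 180.4, 255 and 186 in WT and 423, 317 and 270.3 in KO. None of 22 Notch pathway genes was called. Across these lists, calls were lost without WT1 for Fabp7 (-0.52), Cit (0.55) and Ephb3 (0.60), without WT3 for Ephb3 (0.62), without KO1 for Ephb3 (0.51) and without KO2 for Hjurp (0.52) and Cit (0.49).

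Genes of the respiratory chain had slightly lower means in the knockout. This was so in 49 of 51, and the groups did not overlap in 16, all lower, against 7.55% of all genes, but only 1 was called. The median log2 fold change was -0.19, or -0.15 with median-ratio scaling, beside -0.043 and -0.0079 over all genes. Without WT1 it was -0.11, beside -0.050 over all genes. The called gene, Cycs, encodes cytochrome c and was at 2641, 2089 and 2425 in WT and 1502, 1114 and 2071 in KO, with KO3 just below the wild-type range. For this gene, the call was lost without WT1 (-0.57), without WT3 (-0.63), without KO1 (-0.64) and without KO2 (-0.43). Ndufa5, a complex I subunit, was at 521, 427 and 441 in WT and 313, 241 and 389.8 in KO, and Uqcrq, a complex III subunit, at 927, 914 and 807 in WT and 661, 531 and 761 in KO. Neither overlapped between groups, and both were under 1.5-fold.

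Stress lists had scattered calls, to be read beside the 2.07% called higher and 0.667% called lower over all genes. Of 23 p53 targets, 1 was called lower and 1 higher. Trp53inp1, a p53-induced regulator of autophagy, was at 2666, 2270.0 and 2369 in WT and 1313, 1051 and 1717 in KO, a log2 fold change of -0.86 ± 0.19 (SE) that was called without any 1 library. Sulf2, a sulfatase, was higher at 759.6, 1456 and 1579 in WT and 2224, 2362 and 1873 in KO. Cdkn1a, the p53-induced inhibitor p21, was at 196, 234 and 186 in WT and 250.2, 455 and 227 in KO and was not called. In the integrated stress response list 2 of 21 were called higher, Trib3, given above, and Chac1, which degrades glutathione, at 5.18, 10.6 and 5.04 in WT and 31.8, 48.6 and 9.05 in KO. Asns, asparagine synthetase, was at 506, 392 and 401 in WT and 795, 584 and 526 in KO and was not called, although the groups did not overlap. Slc7a11, a cystine transporter of the same list, was lower without overlap at 9786, 9292 and 7999.7 in WT and 6787, 6864 and 6915 in KO and was not called either. Of 16 immediate early genes 3 were called higher, including Ier3, against 2.07% of all genes. Egr1 was at 31.04, 51.2 and 60.2 in WT and 74.2, 134 and 81.4 in KO. Nr4a1 was at 45.04, 47.8 and 46.02 in WT and 85.8, 92.6 and 57.3 in KO. All knockout libraries were above the wild-type range in Egr1 and Nr4a1. In these lists calls were lost without WT1 for Sulf2 (0.50), Chac1 (1.60), Egr1 (0.74) and Nr4a1 (0.70), without WT2 for Egr1 (1.09) and Nr4a1 (0.74), without WT3 for Chac1 (1.59) and Nr4a1 (0.72), without KO1 for Sulf2 (0.80), Chac1 (1.56) and Nr4a1 (0.64) and without KO2 for Chac1 (1.26), Egr1 (0.75) and Nr4a1 (0.59).

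In the interferon list 15 of 32 genes had too low a mean. Of the 17 tested, 3 were called higher, Tap1 among them, against 2.07% of all genes. H2-K1, a class I antigen-presenting molecule, was at 117, 143 and 172 in WT and 460.0, 495 and 204 in KO, with a log2 fold change of 1.33 ± 0.36 (SE) that was called without any 1 library. Stat2, a transducer of interferon signals, was at 239.6, 229.9 and 255 in WT and 371, 543 and 278 in KO. KO1 and KO2 were well above KO3 in both genes. For Stat2, the call was lost without WT1 (0.66), without WT2 (0.63), without WT3 (0.70), without KO1 (0.69) and without KO2 (0.41). The list as a whole went otherwise, with medians of 0.19, -0.64 and 0.46 in KO1, KO2 and KO3 and a median log2 fold change of 0.013. In KO2, 10 of the 17 lay below the wild-type range, and in KO3 13 lay above it. Counted at 1.5-fold these were 9 and 3, against 12.4% and 1.31% of all genes. No gene of cholesterol synthesis (0 of 22) was called, with Lss, lanosterol synthase, at 542, 600.2 and 698 in WT and 1145, 1238 and 601 in KO.

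Besides Kif20a, the study names 14 genes as germline examples, picked on these libraries and so no independent evidence. Of these Snn, Arf2, Ccnd2, Fabp7 and Cycs were called lower, Igfbp2, Ldha, Pgk1, Tpi1, Aldoa, Eno1, Eno1b and Fam162a higher, and Ddit4 was not called. Snn, a small membrane protein, was at 3029, 2929 and 2635 in WT and 1561, 905 and 2150.1 in KO. Arf2, a small GTPase, was at 1569, 1443 and 1428 in WT and 813, 863 and 1243 in KO. KO3 was nearest to the wild type in both. Among the 10 largest called decreases without overlap, Slc13a3, a dicarboxylate transporter, was at 28.7, 25.2 and 24.6 in WT and 7.52, 4.33 and 19.1 in KO. Ugt1a7c, a glucuronosyltransferase, was at 37.03, 31.1 and 15.5 in WT and 13.4, 5.24 and 13.1 in KO. Lair1, an inhibitory immune receptor, was at 88, 48.3 and 39.96 in WT and 19.6, 17.9 and 33.2 in KO. Wild-type libraries were spread in Ugt1a7c and Lair1, with WT3 the lowest. Snn was called without any 1 library, whereas calls were lost without WT1 for Slc13a3 (-1.42), Ugt1a7c (-1.09) and Lair1 (-0.93), without WT2 for Slc13a3 (-1.51) and Ugt1a7c (-1.21), without WT3 for Slc13a3 (-1.52), without KO1 for Arf2 (-0.51), Slc13a3 (-1.39) and Lair1 (-1.15), without KO2 for Arf2 (-0.56) and Ugt1a7c (-0.94) and without KO3 for Ugt1a7c (-1.52).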

How the data were processed

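RNA of 6 libraries, 3 wild-type and 3 germline knockout, was sequenced by poly(A) RNA-seq in the study. Alignment by the authors used TopHat (version 1.2.0 per the labels) on mm9, followed by counting per RefSeq gene and TMM normalization (a trimmed mean of log ratios) with edgeR. The deposited values are these normalized counts, a signal that is neither whole-numbered, divided by gene length nor logged, so a count model was not used and levels were compared within genes only. Raw counts and read depths were not used here, and no counting interval is given. The table of the inducible comparison, normalized apart, was not used here, and 0 further columns of per-sample values were left out.

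Genes with a mean of at least 10 over the 6 libraries were compared as log2(value + 1) in limma 3.58.1 (R 4.3.3), with a trend in the variance prior and no covariates. Genes past 1.5-fold and an unadjusted P of 0.05 were called, after the study's thresholds, and Benjamini-Hochberg adjusted p-values were computed over all genes tested. Fold changes are on the log2(value + 1) scale, which understates those of low genes. The fit was tested on simulated data with known changes. The simulated libraries all had the same spread, and only genes well above the filter were changed. The test therefore does not cover a library that stands apart, as KO2 does, or changes in genes near the filter. Positions come from an mm9 annotation and promoter windows from RefSeq (GRCm38.p6). Python 3.11.15 with pandas 2.3.3 made the summaries.

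The comparison, the 34 gene lists and the rules were chosen with earlier results of these data known. Genes were named as follows: Kif20a, in each direction the 10 largest called changes without overlap between groups and the 10 widest gaps between nearest libraries, up to 4 members with the smallest P in each list, the 5 genes in each direction farthest out in each knockout library, and the study's germline examples. Exceptions are stated, and some list members are not reported by name here. Alternatives were pseudocounts of 0.1 and 10, no filter and a mean of at least 50, quantile normalization, median-ratio scaling, array weights, no variance trend, the replicate number as a block, and leaving out each library.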

Additional observations from a re-analysis of the deposited data

How the results depend on the processing

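Kif20a was lower under every alternative run. More genes were called higher than lower in each of them except without KO2, which gave 587 higher and 642 lower. The log2 fold change of Kif20a ranged from -2.66 to -2.44 when 1 library was left out, and its adjusted p passed 0.05 in every alternative that kept all 6 libraries (limma, Benjamini-Hochberg). Leaving out 1 library gave 42 to 642 genes called lower, 115 to 617 called higher and 0 to 11 past the adjusted threshold. Where none passed it, the libraries left out were KO1, WT1, WT2 and WT3. The 93 genes called lower became 484 with array weights, in which KO2 had a weight of 0.176, 60 with median-ratio scaling and 180 without a filter on low values, where more genes are tested. The 289 called higher became 560 with array weights, and the cause was not tested beyond that weight. Without a variance trend 2 genes passed the adjusted threshold, Kif20a and En2, the second with an adjusted p of 0.0074 (limma). Whether the cassette adds to the En2 reads was not tested. Of the 70 named genes that were called, 61 to 70 were called in each alternative that kept all libraries and the filter of 10, and 30 to 61 with 1 library left out.

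Replicate numbers are shared by both genotypes, but the labels do not say that they pair embryos. Deviations of same-numbered libraries correlated across genes with r of -0.116, 0.306 and 0.247, so the numbers were not taken as pairs, and KO1 correlated best with WT3. With the replicate block the counts were 98 lower and 278 higher, and the log2 fold change of Kif20a was -2.54 (limma, adjusted p = 0.0334).

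The depth of each library is unknown from normalized counts, so low genes near the filter of 10 carry a counting error that cannot be given. With 3 libraries a group, of which KO2 stands apart, a gene without a call is not shown to be alike in both genotypes.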

Other observations

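Cajal-Retzius genes, which mark the earliest neurons of the marginal zone, had none of 14 called. Their median differences from the wild-type mean were -0.041, 0.78 and -0.19 in KO1, KO2 and KO3. Calb2, the calcium-binding protein calretinin, was at 295, 347 and 177 in WT and 59.2, 306 and 142 in KO. Barhl2, a homeobox factor, was at 97.3, 173 and 297 in WT and 443, 295 and 154 in KO, and Ebf1, a helix-loop-helix factor, at 342, 385 and 689 in WT and 532, 1518 and 378 in KO. The wild-type and knockout libraries overlapped in these genes.

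Insulin-like growth factor genes had Igfbp2 as the 1 gene called of 12, with medians of 0.65, 0.38 and 0.36 in KO1, KO2 and KO3. Igfbp5, another binding protein, was at 2030.3, 3905 and 3427 in WT and 4392, 6126 and 3924 in KO and missed the P threshold. Of 19 G1 cyclins, kinases and inhibitors, Ccnd2 was the 1 called. Cdkn2c, an inhibitor of Cdk4 and Cdk6, was at 294, 291 and 189 in WT and 145, 235 and 191 in KO, and Cdkn1c, an inhibitor known as p57, at 1553, 2363 and 1710.0 in WT and 2912, 2030.0 and 2158 in KO. Both overlapped between the groups.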
